A study of Mus musculus with 4 samples.

Results

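The HoxA, HoxB, HoxC and HoxD clusters, which carry 38 Hox genes, 10 each in HoxA and HoxB and 9 each in HoxC and HoxD, were examined in a tiling-array profile of DNA methylation in the mouse fetal liver. Probes were chosen by position alone, on build mm9. A probe belonged to HoxA when it started within chr6:52100000-52220000, to HoxB within chr11:96050000-96240000, to HoxC within chr15:102740000-102880000 and to HoxD within chr2:74490000-74610000. This gave 1023 of the 415814 probes on the array, of which 1022 remained after removal of flagged outliers. Probes whose starts lay within 500 bp of each other made up regions with a minimum of 3 probes and a maximum of 2000 bp, which took in all but 5 of the Hox probes. The clusters held 129 of the 56653 regions so obtained, 35 in HoxA, 31 in HoxB, 29 in HoxC and 34 in HoxD.

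The livers came from C57BL/6J fetuses taken by caesarean section on gestation day 18. Control dams ate freely. Dams of the food restricted group received, from gestation day 10 to 17, CE-2 chow amounting to 50% of what the controls had eaten on the same day, and both groups had the same strain and housing. Each group was 1 pool of whole-liver DNA described as N = 6, without a statement of how many litters it covered. DNA immunoprecipitated for methylation (MeDIP) was hybridised against total DNA of the same pool on 2 arrays with the dyes exchanged. Of the 4 arrays, by their titles, a slide held 1 of each pool with the same dyes, and there were 2 slides. Arrays of 1 pool repeat the hybridisation, not the animals, so no replicate check of the difference exists and no test was made. The values of both slides stand in place of an error. DNA of all liver cells was measured together, and with no RNA in the assay the tissue label could not be checked against marker genes.

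Hox genes encode homeodomain transcription factors that give cells their position along the head-to-tail axis, and within a cluster they are ordered as they are used along that axis. The clusters are rich in CpG islands, most of which are free of methylation in somatic tissue, and Polycomb proteins hold them silent where they are not used. In the fetal liver, a blood-forming organ at this age, genes of HoxA and HoxB are known for their part in blood stem and progenitor cells. MeDIP enrichment rises with both the methylation and the number of CpGs of a fragment. A low value is therefore ambiguous in a stretch poor in CpGs, whereas in a CpG-rich stretch it points to few methylated CpGs.

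The number of CpGs near Hox promoters thus bears on how the arrays can be read. RefSeq promoter sequences on GRCm38.p6 were available for 22 of the 38 genes, with 24 start sites, 9 genes in HoxA, 3 in HoxB, 1 in HoxC and 9 in HoxD. The 250 bases upstream of these starts held a median of 12.5 CpGs, with a range of 2 to 35, against a median of 6 over all 32851 starts of the table. The motif counted was CG, which reads the same on both strands. Of all upstream stretches of this length, 2.97% had at least the 35 CpGs of Hoxa13 and 81.2% at least the 2 of the first start of Hoxd11. Sequences are shown 5′ to 3′ on the strand of the gene with each CpG in capitals, for the richest and the poorest member and for 1 member of every cluster. Hoxa13 and Hoxd13 act in the digits and the urogenital tract, Hoxd11 in the forearm and kidney, and Hoxb4 in the growth of blood stem cells. The stretches lie at chr6:52260881-52261130 on the minus strand (Hoxa13, 35 CpGs) and, on the plus strand, at chr11:96318017-96318266 (Hoxb4, 14 CpGs), chr15:103034145-103034394 (Hoxc4, 8 CpGs), chr2:74667975-74668224 (Hoxd13, 31 CpGs) and chr2:74679308-74679557 (Hoxd11, 2 CpGs), all on GRCm38.p6.
Hoxa13: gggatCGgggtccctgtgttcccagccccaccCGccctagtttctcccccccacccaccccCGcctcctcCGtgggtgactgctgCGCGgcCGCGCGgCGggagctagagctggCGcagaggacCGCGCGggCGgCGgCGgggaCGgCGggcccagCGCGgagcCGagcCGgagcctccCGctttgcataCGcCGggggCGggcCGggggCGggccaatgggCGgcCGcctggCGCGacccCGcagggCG
Hoxb4: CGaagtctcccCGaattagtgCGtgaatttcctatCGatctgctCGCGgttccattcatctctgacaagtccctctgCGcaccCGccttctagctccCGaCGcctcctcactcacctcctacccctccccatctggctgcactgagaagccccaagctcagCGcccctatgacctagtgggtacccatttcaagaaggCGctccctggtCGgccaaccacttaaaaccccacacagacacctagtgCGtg
Hoxc4: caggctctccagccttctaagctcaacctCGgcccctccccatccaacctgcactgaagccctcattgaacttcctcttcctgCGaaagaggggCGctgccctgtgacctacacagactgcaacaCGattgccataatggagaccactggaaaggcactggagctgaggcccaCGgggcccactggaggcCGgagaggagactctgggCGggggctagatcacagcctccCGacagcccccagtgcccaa
Hoxd13: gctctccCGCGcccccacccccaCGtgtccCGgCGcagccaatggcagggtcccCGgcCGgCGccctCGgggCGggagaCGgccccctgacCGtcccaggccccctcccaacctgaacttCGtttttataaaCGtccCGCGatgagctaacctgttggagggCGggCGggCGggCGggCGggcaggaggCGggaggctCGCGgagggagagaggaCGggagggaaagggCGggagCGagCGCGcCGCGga
Hoxd11: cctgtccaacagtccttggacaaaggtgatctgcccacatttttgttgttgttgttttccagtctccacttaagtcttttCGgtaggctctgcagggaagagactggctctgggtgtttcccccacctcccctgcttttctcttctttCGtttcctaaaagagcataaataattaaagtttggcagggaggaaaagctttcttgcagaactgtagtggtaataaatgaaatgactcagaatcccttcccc
The Hoxa13 and Hoxd13 stretches hold over 10 times as many CpGs as that of Hoxd11. The second start of Hoxd11 had 20 CpGs, so the count depends on the start that is taken. The arrays are placed on mm9 and these sequences on GRCm38.p6, and no position was carried from one build to the other. Regions are therefore given by mm9 position and by the end of the cluster they lie nearest, with the order of genes from the GRCm38.p6 table. On the plus strand of the chromosome, HoxA runs from Hoxa2 to Hoxa13, HoxB from Hoxb13 to Hoxb1, HoxC from Hoxc13 to Hoxc4 and HoxD from Hoxd13 to Hoxd1. Genes of Hox cofactors and regulators outside the clusters were not placed here for the same reason.

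The clusters were low in immunoprecipitated relative to reference DNA in both pools. Enrichment is expressed as M, which is log2 of the immunoprecipitated over the reference signal less the median of the array. An M of 0 is thus the level of the median probe, and a region takes the median M of its probes. Array values are given in the order control and food restricted on slide 1, then control and food restricted on slide 2. HoxC had the lowest M, with a median over its regions of -1.63, -1.31, -1.74 and -1.37. HoxD followed with -1.56, -1.27, -1.64 and -1.27. HoxB had -0.98, -0.75, -1.19 and -0.86, and HoxA -0.74, -0.48, -0.86 and -0.64. The order of the clusters was the same on all 4 arrays. The medians of HoxC and HoxD differed by at most 0.10 on an array, less than the 0.29 to 0.37 by which the pools differed on a slide. Their order turned with the immunoprecipitated channel alone, where HoxC lay at -1.16 and HoxD at -1.21 less the median of all regions, and many of their regions are dim in the control pool (12 of 29 and 15 of 34), where M is a bound. Over all 129 Hox regions the medians were -1.31, -1.12, -1.36 and -1.10, against values between -0.09 and -0.08 over all regions of the array.

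**Figure D1:**
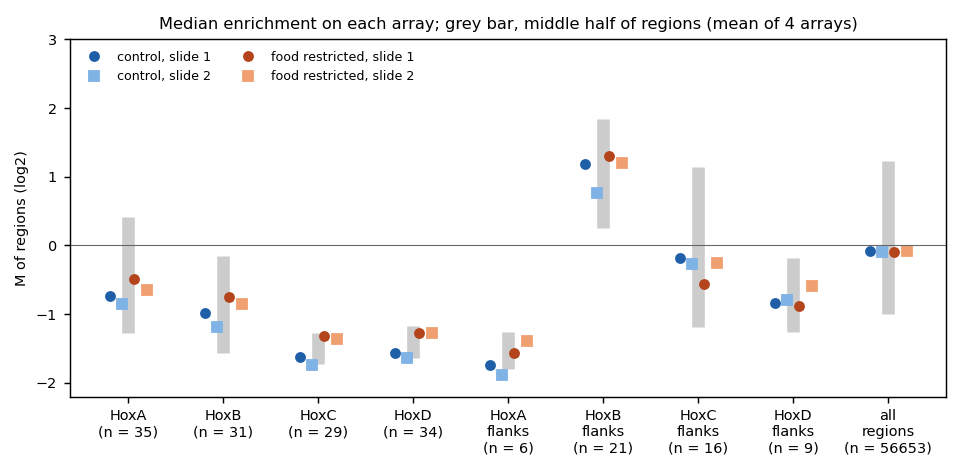
Median M (log2) of the regions of each cluster, of the regions within 200 kb outside it and of all regions, with 1 point per array and a grey bar from the lower to the upper quartile of the regions' mean M over the 4 arrays. HoxC and HoxD lie at -1.27 or below on every array, while the flanks of HoxB lie at 0.77 or above.

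M was below 0 on all 4 arrays in 103 of the 129 Hox regions (79.8%), against 45.8% of all regions. All 29 HoxC regions were below 0 on every array, as were 29 of 34 in HoxD, 23 of 31 in HoxB and 22 of 35 in HoxA. At the other end, 6 Hox regions (4.65%) had an M above 1 on every array, against 25.3% of all regions. Both channels took part in the low level. The immunoprecipitated signal of the Hox regions, as log2 over its array median, had a median of -0.83, -0.68, -0.83 and -0.65. The reference signal was above its array median, with 0.28, 0.46, 0.33 and 0.46. In HoxA the immunoprecipitated medians were -0.36, -0.10, -0.31 and -0.29, beside reference medians of 0.42, 0.50, 0.46 and 0.51. From the immunoprecipitated channel alone, 81 of the 129 Hox regions were below the median of all regions on every array. These were 23 of 29 in HoxC, 26 of 34 in HoxD, 16 of 31 in HoxB and 16 of 35 in HoxA. The share over all regions was not counted. Less the median of all regions, the medians in this channel were -1.16 in HoxC, -1.21 in HoxD, -0.45 in HoxB and -0.25 in HoxA. HoxA and HoxB were thus much less low in this channel than HoxC and HoxD.

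HoxC and HoxD were among the lowest of the long, densely probed stretches of the array. Outside the clusters, 485 windows of 100 kb held at least 100 probes, and their median M, averaged over the arrays, had a median of 0.40 and a minimum of -1.46. By the same measure HoxC had -1.53 and HoxD -1.36, HoxB -0.82 and HoxA -0.68. None of the 485 windows was lower than HoxC and 2 were lower than HoxD (0.412%). For HoxB 31 windows were lower (6.39%) and for HoxA 47 (9.69%). The cluster windows are 120 to 190 kb long, so the comparison is with somewhat shorter windows, and it is a description without a test.

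The neighbourhoods of the clusters differed more than the clusters did. The regions within 200 kb outside HoxB had a median mean M of 1.08 (21 regions), and those outside HoxC -0.22 (16 regions), HoxD -0.78 (9 regions) and HoxA -1.69 (6 regions). The cluster median less the flank median was -2.06 ± 0.09 for HoxB (SD over the 4 arrays), -1.19 ± 0.34 for HoxC and -0.66 ± 0.19 for HoxD. For HoxA, with its few flanking regions, it was 0.96 ± 0.15. The contrast around HoxC had a side. Beyond its Hoxc13 end the median mean M was 1.46 (4 regions), and beyond its Hoxc4 end -0.97 (12 regions).

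**Figure D2:**
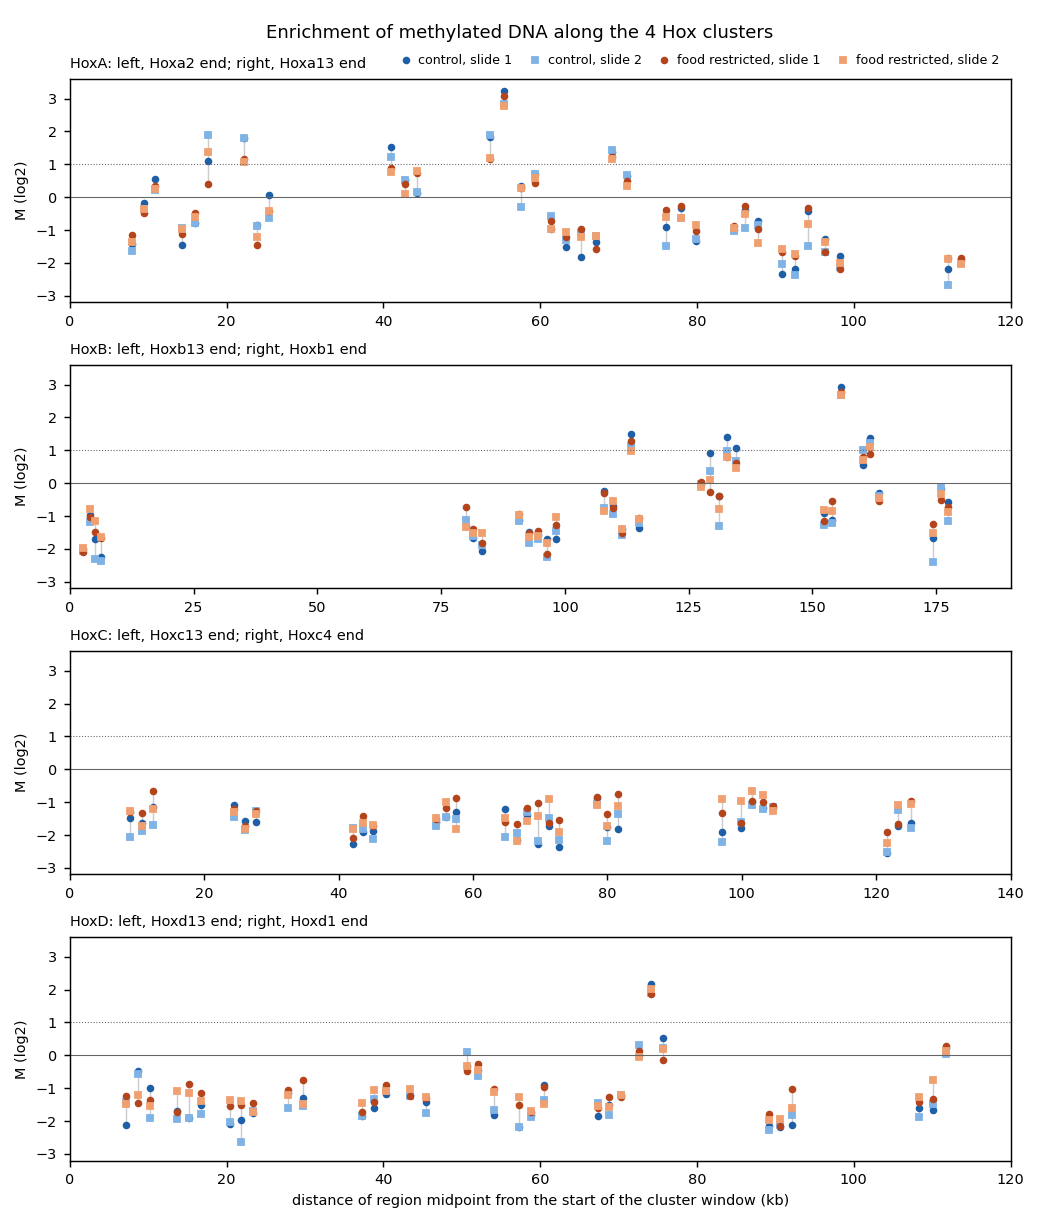
M (log2) of every Hox region on the 4 arrays against the distance of its midpoint from the start of the cluster window (kb), with grey lines joining the lowest and the highest array. HoxC stays below 0 from end to end, HoxA drops below 0 over its last 13 regions at the Hoxa13 end, and single regions of HoxA, HoxB and HoxD stand above 1 (dotted line).

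Along the clusters the enrichment was uneven in HoxA and HoxB and nearly flat in HoxC. The SD of mean M over regions was 1.22 in HoxA, 1.16 in HoxB and 0.81 in HoxD, and 0.33 in HoxC, where the values ran from -2.31 to -0.93. With each window divided into 3 equal segments, the HoxA segment at the Hoxa13 end had a median of -1.70 over 10 regions, the middle segment 0.27 over 16 regions and the segment at the Hoxa2 end -0.35 over 9 regions. HoxB showed a step of the same orientation. Its segment at the Hoxb13 end had -1.82 over 4 regions, its middle segment -1.36 over 13 regions and its segment at the Hoxb1 end -0.16 over 14 regions. In both clusters the side of the group-13 gene, the last to be used along the body axis, was thus the lower. HoxC had the same orientation over a much smaller range, with -1.65, -1.51 and -1.40 from the Hoxc13 end, though not on every array: the control array of slide 1 had -1.62, -1.68 and -1.68. HoxD was lowest at the other end, with -1.46, -1.18 and -1.59 (6 regions) from the Hoxd13 end to the Hoxd1 end. This too did not hold on every array: the food restricted array of slide 1 had -1.43, -1.02 and -1.38.

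The longest unbroken runs of regions with M below 0 on all arrays mark the same layout. In HoxC the run covered the whole cluster, 29 regions over 117.9 kb at chr15:102748088-102865972. In HoxB 15 regions at chr11:96052329-96162206 formed a run of 109.9 kb, which includes the largest gap in probe coverage, 72.5 kb at chr11:96056640-96129137. In HoxA the run held 13 regions over 39.2 kb at chr6:52175157-52214380, up to the last probe at the Hoxa13 end. In HoxD it held 16 regions over 39.8 kb at chr2:74496463-74536310, from the first probe at the Hoxd13 end. The lowest region of HoxC, at chr15:102861366-102861938, had an M of -2.56, -1.90, -2.53 and -2.26. That of HoxA, at chr6:52211293-52212719 near the Hoxa13 end, had -2.18, -1.86, -2.68 and -1.89. In HoxB the lowest region was the first one at the Hoxb13 end, chr11:96052329-96053137, with -2.01, -2.09, -2.06 and -1.97. HoxD had its lowest region towards the Hoxd1 end, at chr2:74579984-74581318, with -2.17, -2.16, -2.11 and -1.92. In these 4 regions at least 50% of the probes were not well above background in the immunoprecipitated channel of the control pool, so the values are bounds and do not rank the regions.

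The 6 regions with an M above 1 on every array stood as islands in this landscape. The highest was in the middle segment of HoxA, at chr6:52154398-52156392 with 12 probes, where M was 3.22, 3.07, 2.85 and 2.78. In HoxB the region at chr11:96204952-96206523, in the segment at the Hoxb1 end, had 2.91, 2.78, 2.68 and 2.68. In HoxD the region at chr2:74563401-74564764 in the middle segment had 2.17, 1.86, 1.91 and 2.01. Arrays of both pools were high in all of them, and in these 3 the food restricted pool less the control pool lay between -0.31 and 0.10 on a slide. The 3 others were in HoxA, at chr6:52121633-52122873, chr6:52153360-52153806 and chr6:52168274-52170098. HoxC had no such region, and its highest, at chr15:102840852-102842233, lay between -1.10 and -0.65 on the 4 arrays.

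The arrays agreed on this pattern to a degree that depended on the cluster. Over all 129 regions M correlated between pairs of arrays at r = 0.93 to 0.96. In HoxA it was 0.93 to 0.97, in HoxB 0.96 to 0.97 and in HoxD 0.89 to 0.94. In HoxC, where there was little range to order, it was 0.46 to 0.69. These values run across regions, which share their arrays and are not replicates.

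The comparison of the pools asked where maternal food restriction coincided with a different methylation of the clusters. D stands for M of the food restricted pool less that of the control pool beside it on the slide, and a positive D means more enrichment with food restriction. Several facts bear on every D. Fewer immunoprecipitated probes were well above background with control DNA (72.2% and 72.0% over the whole array) than with food restricted DNA (79.9% and 80.6%). In the Hox probes the shares were 63.8% and 62.9% against 77.1% and 78.0%, and in HoxC 51.8% and 51.8% against 68.3% and 70.1%. Of the 129 Hox regions, 35 (27.1%) were dim in the control pool, meaning that at least 50% of their probes were not well above background, and 10 (7.75%) in the food restricted pool. HoxC had 12 and 1 of these and HoxD 15 and 6. The part of this dimness in D was not tested. Array position went with the pool on either slide, and the effects of position and pool cannot be told apart. The deposited table of ratios gives 2 of the 4 arrays, the food restricted array of slide 1 and the control array of slide 2, each other's values. If the scanner files and titles are right, D under the table's own labels is slide 2 less slide 1 within 1 pool. The dye-swap remark on both food restricted samples goes with the table's assignment instead. If the table is right, the D reported here is the one taken within a pool, and the table's D compares the pools across slides. Which assignment is right was not tested. The scanner files and titles were used.

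The median D over the Hox regions was 0.13 on slide 1 and 0.18 on slide 2, against 0.04 and 0.09 over all regions. HoxC had 0.21 and 0.27, HoxD 0.18 and 0.22, HoxB -0.06 and 0.11 and HoxA -0.06 and 0.00. D was above 0 on both slides in 62 Hox regions (48.1%) and in 39.1% of all regions, and below 0 on both in 25 (19.4%) against 23.7%. In HoxC 19 of 29 regions were above 0 on both slides and none was below 0 on both. In HoxD the counts were 21 and 5 of 34, in HoxB 10 and 8 of 31, and in HoxA 12 and 12 of 35. The sign of the Hox median depended on the scaling. It became -0.05 averaged over the slides after quantile normalization between arrays and -0.04 when arrays were centred on their densest value. The value table under its own labels gave -0.08, but there, if the titles are right, D compares the slides within 1 pool and not the pools. With quantile normalization 7 HoxC regions were below 0 on both slides and 8 above, and the shares over all regions were not counted for that setting.

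**Figure D3:**
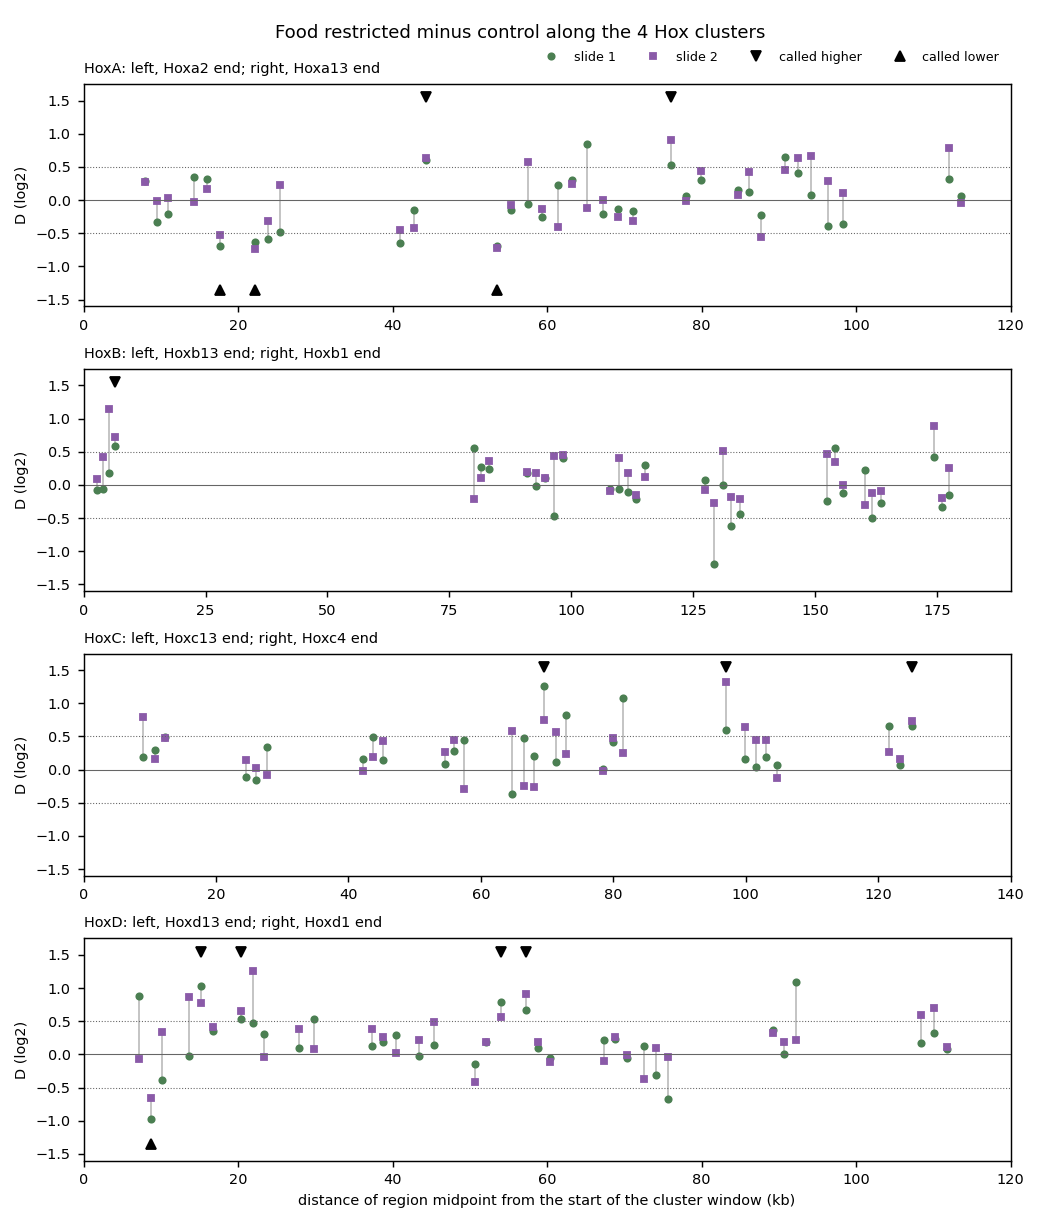
D (log2), the food restricted pool less the control pool, of every Hox region on both slides against the distance of its midpoint from the start of the cluster window (kb), with grey lines joining the slides, dotted lines at 0.5 and -0.5, and triangles at the 10 regions called higher and the 4 called lower. Of the 4 lower calls 3 are in HoxA, and HoxB has a single call, at its Hoxb13 end.

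The size used for calls was a D of 0.5 (1.41-fold), reached in 1 direction on both slides. Such a call favours arrays of the pools that do not overlap, so non-overlap given below is no further support for a call. The share of regions without overlap was not counted over the array. Of the Hox regions 10 (7.75%) were called higher in the food restricted pool, against 4.55% of all regions, and 4 (3.10%) were called lower, against 0.643%. None passed this size with opposite signs, against 0.717% of all regions. HoxA had 2 higher and 3 lower, HoxB 1 higher, HoxC 3 higher, and HoxD 4 higher and 1 lower. The split turned with the centring of the arrays. It was 2 higher and 5 lower when arrays were centred on their densest value, 2 and 3 after quantile normalization, and 17 and 3 without centring. Over all regions the same settings gave 815 and 1314, 668 and 581, and 4071 and 227, against 2580 and 364. Other steps moved it too. Loess within arrays gave 1 higher and 2 lower (4831 and 237 over all regions), normexp 0 and 0 (1540 and 1), and the immunoprecipitated channel alone 10 and 7 (1885 and 977). The median D of all regions moved with the centring, to -0.21 and -0.05 for the densest value and to 0.14 and 0.15 without centring.

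How far the Hox values are those of any region as low was read from the other regions of the same level. Over the array the median D was 0.25 and 0.27 in regions with a mean M below -1, 0.08 and 0.09 between -1 and 0, and -0.11 and -0.05 between 0 and 1. A running median over 2001 regions gave 0.24 and 0.26 at the levels of the Hox regions, more than the 0.13 and 0.18 measured. For HoxC it gave 0.27 and 0.30 and for HoxD 0.26 and 0.30, again slightly above the measured medians. For HoxB it gave 0.18 and 0.19 and for HoxA 0.13 and 0.15. Among regions with a mean M below -1, the 82 in the Hox clusters had a median D of 0.26 and 0.27, like the 14115 over the array. Of these Hox regions 8 (9.76%) were called higher, and 9.17% of all regions of that level were. The share of higher calls in the low Hox regions was thus near that of any low region, and nothing particular to the clusters is read from it. Less the running median, the Hox median became -0.06 averaged over the slides, with 1 region higher and 3 lower. Over all 56653 regions 621 were then higher and 567 lower, against 2580 and 364 before this step. Higher calls thus became fewer over the whole array as well as in the clusters.

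**Figure D4:**
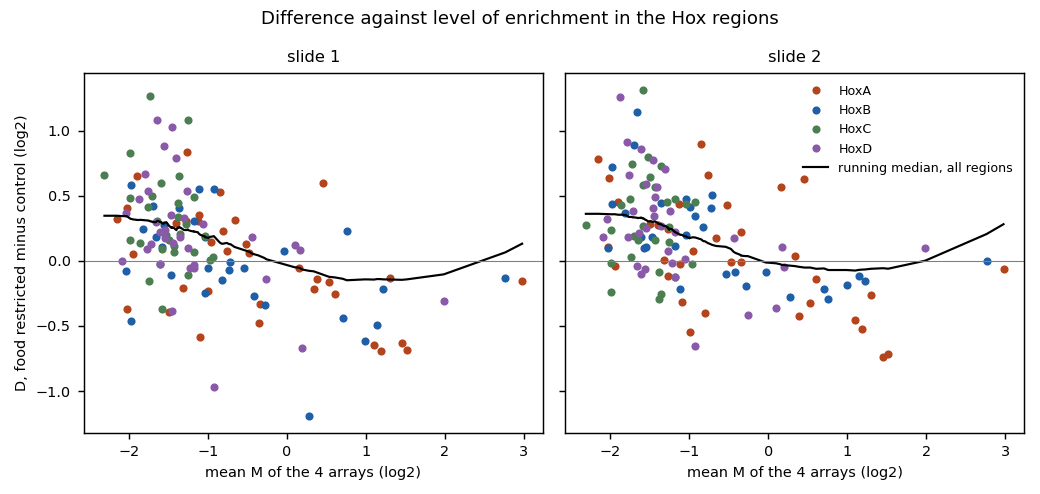
D (log2) of each Hox region against its mean M over the 4 arrays (log2), by cluster, for slide 1 and slide 2, with the running median of D over all regions of the array as a black line. Most Hox regions lie to the left, where the line is above 0, and the 6 HoxA regions with a mean M of at least 1 lie below 0 on both slides.

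The enriched regions of HoxA had the opposite sign, but not after loess, where their median D was 0.25 and 0.01. With the value table under its own labels, which by the titles does not compare the pools, their median was 0.03 and -0.08. All 6 HoxA regions with a mean M of at least 1 had a D below 0 on both slides, with a median of -0.64 and -0.49, and 3 of them were called lower. Over the array 16226 regions had such a level, of which 29.7% were below 0 on both slides and 0.253% were called lower, and their median D was -0.03 and 0.07. All but the highest of the 6 lie below an M of 2, where D over the array was lower. Of the 18821 regions between 0 and 2, 44.0% were below 0 on both slides and 0.940% were called lower, and D had a median of -0.12 on slide 1 and -0.05 on slide 2. Of the 11 HoxA regions in that range 8 (72.7%) were below 0 on both slides and 3 (27.3%) were called lower. HoxB had 6 regions in that range, with 5 (83.3%) below 0 on both slides, a median D of -0.47 and -0.20 and 0 called lower. HoxD had 4, with 1 below 0 on both slides and 0 called lower. A negative D at this level was thus not particular to HoxA. At a mean M of at least 1, the 3 regions of HoxB had a median D of -0.21 and -0.12 with 2 below 0 on both slides. The single one of HoxD had -0.31 and 0.10. Of the 6 HoxA regions, all stayed below 0 on both slides without centring, with densest-value centring, without dim immunoprecipitated probes and with the mean over probes, and 5 after quantile normalization or with the immunoprecipitated channel alone, while 4 did when slides were crossed. Only 2 were below 0 on both slides after loess within arrays and 3 after normexp background correction. The value table under its own labels, which by the titles does not compare the pools, gave 2. These 6 regions were grouped by level after the values had been seen, and they share their arrays and neighbourhood.

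Of the 3 HoxA regions called lower, the one at chr6:52121633-52122873, in the segment at the Hoxa2 end, had an M of 1.80 (control) and 1.17 (food restricted) on slide 1, and 1.80 and 1.06 on slide 2. Both control arrays were above both food restricted arrays. D was -0.63 and -0.74, a level 1.61-fold lower in the food restricted pool, and 6 of its 7 probes were lower on both slides. The immunoprecipitated channel differed by -1.03 and -0.85 and the reference channel by 0.03 and -0.02. The region at chr6:52153360-52153806, with 3 probes in the middle segment, had 1.84 and 1.15 on slide 1 and 1.90 and 1.18 on slide 2. Its D was -0.68 and -0.72, or 1.62-fold lower, with all 3 probes lower on both slides, and again the pools did not overlap. It kept its call in 10 of 14 alternatives, which leave aside single slides, recut regions, wider flanks and the smaller size, and it was not measured in 1 of them. The other 13 calls were kept in 4 to 8. The 14 alternatives include the value table by scanner file, which repeats the reported values and kept every call. They also include the table under its own labels, which by the titles does not compare the pools and kept none. The neighbour of chr6:52153360-52153806 towards Hoxa13 is the highest region of the clusters, where D was -0.15 and -0.07. The region at chr6:52116874-52118343 had 1.102 and 0.41 on slide 1 and 1.89 and 1.37 on slide 2, so that the pools overlapped across slides. Its D was -0.69 and -0.53, 1.53-fold lower, with 4 of 9 probes lower on both slides and none higher. Its immunoprecipitated channel differed by 0.03 and -0.33. The sign of D turned after loess, to 0.31 and 0.34. With the value table under its own labels the values were 0.79 and 0.96, which by the titles are differences between the slides within 1 pool.

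HoxA also held 2 regions called higher. At chr6:52143571-52145054 in the middle segment, M was 0.14 and 0.74 on slide 1 and 0.16 and 0.79 on slide 2, and the pools did not overlap. D was 0.60 and 0.63, or 1.53-fold, although of its 9 probes 3 were higher and 3 lower on both slides, so the median rests on a region whose probes disagree. Its D became -0.25 and -0.33 without dim immunoprecipitated probes, -0.88 and 0.21 after loess, -0.07 and -0.10 after normexp, and -0.04 and 0.13 with the mean over probes. The region at chr6:52175157-52177006 had -0.92 and -0.39 on slide 1 and -1.49 and -0.59 on slide 2. D was 0.53 and 0.90, or 1.64-fold, with 5 of 9 probes higher on both slides and 2 lower. Its immunoprecipitated channel differed by 0.58 and -0.29. Under the value table's own labels, where by the titles the slides are compared within 1 pool, the values were -0.575 and -0.20. This is the region at which the low run towards Hoxa13 begins.

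HoxB had a single call, at the Hoxb13 end, beside the gap in coverage. The region at chr11:96056167-96056639, with 3 probes, had -2.25 and -1.66 on slide 1 and -2.36 and -1.64 on slide 2. The pools did not overlap, D was 0.59 and 0.72, or 1.57-fold higher, and all 3 probes were higher on both slides. The HoxB region with the most negative D on both slides was not called. At chr11:96178368-96180126 M was 0.93 and -0.27 on slide 1 and 0.37 and 0.09 on slide 2, a D of -1.19 and -0.28.

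In HoxC the 3 calls were all higher, in the middle and the Hoxc4 segments, and began from very low control values. At chr15:102808878-102810355 M was -2.29 and -1.02 on slide 1 and -2.18 and -1.43 on slide 2, with D of 1.26 and 0.74 and 5 of 8 probes higher on both slides. At chr15:102836480-102837513 it was -1.91 and -1.31 on slide 1 and -2.22 and -0.91 on slide 2, with D of 0.60 and 1.32 and 6 of 7 probes higher. Both regions were dim in the control pool. A lower bound on the fold, taken from the dimmest signal well above background, was under 1 for both, so no fold is given. The region at chr15:102864344-102865972, the last at the Hoxc4 end, was not dim. Its M was -1.63 and -0.97 on slide 1 and -1.79 and -1.06 on slide 2, a D of 0.65 and 0.73 or 1.61-fold, with 7 of 10 probes higher on both slides and 2 lower. In all 3 both food restricted arrays were above both control arrays.

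HoxD had 4 regions called higher. The largest difference was at chr2:74504598-74505776, towards the Hoxd13 end, where M was -1.90 and -0.87 on slide 1 and -1.92 and -1.14 on slide 2. D was 1.03 and 0.78, or 1.87-fold, with 4 of 5 probes higher on both slides. Its immunoprecipitated channel differed by 0.65 and 0.20 and the reference channel by 0.41 and 0.00. D became 0.84 and 0.19 with the mean over probes, 0.45 and 0.09 after loess, and 0.19 and 0.05 after normexp. The call was kept in 7 of the 14 alternatives and not measured in 1. At chr2:74543697-74544466 in the middle segment M was -1.81 and -1.02 on slide 1 and -1.68 and -1.11 on slide 2, a D of 0.79 and 0.57 or 1.60-fold. Of its 4 probes 2 were higher on both slides and 0 lower. Its D became 0.01 and 0.42 after loess and -0.03 and 0.26 after normexp. This call was kept in 6 of the 14 alternatives and not measured in 2. The other 2 were dim in the control pool. At chr2:74546561-74548011 M was -2.19 and -1.52 on slide 1 and -2.19 and -1.27 on slide 2, with D of 0.67 and 0.91, and the level was at least 1.11-fold higher in the food restricted pool. At chr2:74509734-74511127 M was -2.09 and -1.55 on slide 1 and -2.03 and -1.37 on slide 2, with D of 0.54 and 0.66, all 8 probes higher on both slides and a bound under 1. In these 4 regions the arrays of the pools did not overlap, which the call itself favours.

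The HoxD region called lower, the second at the Hoxd13 end, was at chr2:74498059-74499404. M was -0.47 and -1.44 on slide 1 and -0.56 and -1.22 on slide 2, with D of -0.97 and -0.65, and the pools did not overlap. It was dim in both pools, with 3 and 4 of its 6 probes, 2 probes were lower on both slides and none higher, and it has no fold. Its immunoprecipitated channel differed by -0.03 and -0.50. When probes with a dim reference or saturated signal were left out it was no longer called.

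**Figure D5:**
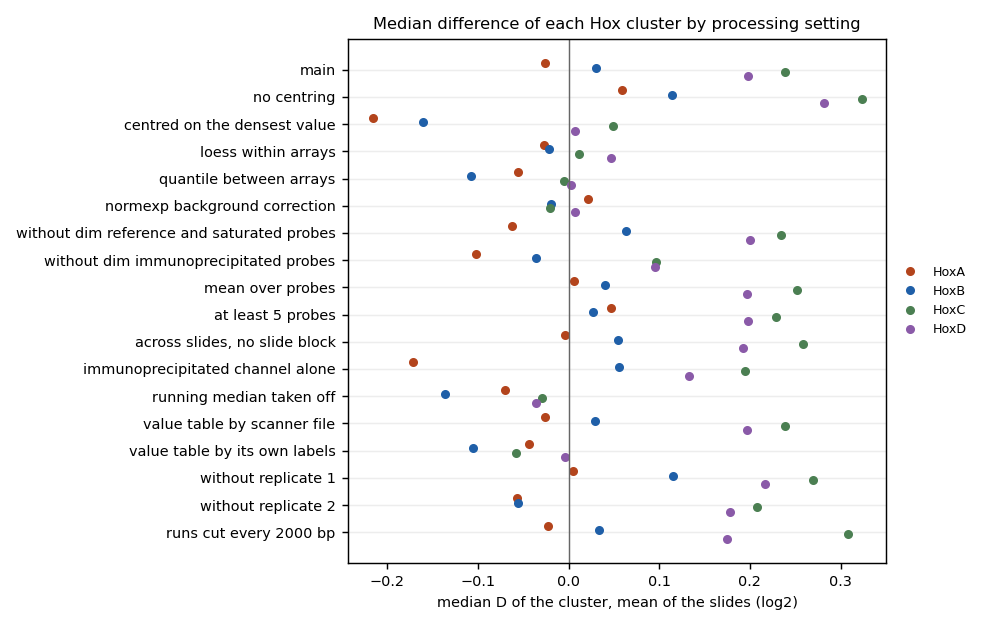
Median D (log2, mean of the slides) of the regions of each cluster under the reported processing (main) and each alternative, where replicate 1 and replicate 2 stand for slide 1 and slide 2. HoxC and HoxD lie above HoxA and HoxB in the main setting, at 0.24 and 0.20 against -0.03 and 0.03. The 4 clusters lie between -0.03 and 0.05 after loess and between -0.02 and 0.02 after normexp. The value table by its own labels compares, if the titles are right, the slides within a pool, not the pools.

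The repeat of D between the slides was moderate. Over the 129 Hox regions it correlated at r = 0.50, against 0.34 over all regions, with 0.64 in HoxA, 0.48 in HoxD, 0.45 in HoxB and 0.20 in HoxC. The slides share the pools, and the labels do not say if they share a precipitate. None of the 14 calls was kept after normexp background correction, and 1 of them after loess. The value table under its own labels kept none, and D averaged over the slides had the opposite sign in 8 of the 14. If the titles are right, that D compares the slides within 1 pool and does not bear on the difference between the pools. With the immunoprecipitated channel alone 6 of the 14 were kept. Without dim immunoprecipitated probes 7 of the 14 could not be measured, all 5 of HoxD among them, and 3 of the other 7 were kept, the HoxA regions at chr6:52121633-52122873 and chr6:52153360-52153806 and the HoxC region at chr15:102808878-102810355. The low level of the clusters kept its sign in this way, but not its size. With the immunoprecipitated channel alone, HoxA went from -0.60 to -0.25 less the median of all regions, and HoxB from -0.86 to -0.45. The Hox median less the median of all regions was -1.14 as reported and lay between -1.26 and -0.65 in all 19 alternatives. All HoxC regions measured were below the median of all regions on every array, except with the immunoprecipitated channel alone.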

How the data were processed

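Each of the 2 pools was measured on 2 arrays with 2 colours, which with 1 pool a group leaves no spread between animals and so no test; the number of arrays limits the precision. Arrays were grouped by title. The submitters' processing notes name version 10.5.1.1 of Agilent Feature Extraction for the scanner files. Processed intensities have background subtracted and a dye factor applied, per the file headers, and probe positions are on mm9. The deposited value table gives log2 of red over green processed intensity, neither turned for the dyes nor centred, as comparison with the scanner files showed. A pair of its columns hold each other's scanner values, equal within 0.001 at 100% of probes (r = -0.91 with the file of their own label), so the scanner files were the main source. Flags for outliers, saturation and signal above background were used as deposited by the authors. The food restricted samples both bear a dye-swap remark, while the titles exchange dyes between slides; the titles were followed.

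M, regions (56653) and D were computed as described above with Python 3.11.15, numpy 2.4.6 and pandas 2.3.3; loess, quantile and normexp alternatives used R 4.3.3 and limma 3.58.1. A region counted for a cluster when over 50% of its probes started in the window, and flanks reached 200 kb to each side. Named were, per cluster, the regions of highest and lowest mean M, those of highest and lowest D by the slide of smaller size, and every call. No HoxC region had a negative D on both slides, so none was named there as lowest. Clusters, lists and regions were chosen with earlier results of these data known. The alternatives covered centring, normalization, background, probe filters, the region summary, the slides, the value table, the flanks and the size of D. One, regions cut every 2000 bp from the first probe, was chosen after seeing the data. The normexp alternative used median spot intensity, since the mean was not in the scanner files used. Motif counts and promoter sequences came from the RefSeq table for GRCm38.p6.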

Additional observations from a re-analysis of the deposited data

How the results depend on the processing

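With 1 pool a group, no alternative tests the difference between the pools, and the values here show only what the processing moves. As reported, 10 Hox regions were higher and 4 lower, the Hox median D (mean of the slides) was 0.15, and the Hox median M less the flank median was -0.99. Without centring 17 were higher, with a median D of 0.24, and the HoxA median D turned to 0.059. Centring on the densest value gave 2 higher, a Hox median D of -0.035 and a HoxB median D of -0.16. Loess gave 1 higher and 2 lower, a median D of 0.0017 and HoxB at -0.022. Quantile normalization gave 2 higher, a median D of -0.053, HoxB at -0.11 and HoxC at -0.0051. Normexp gave 0 higher and 0 lower, a median D of 0.0012, a Hox level of -0.57 less flanks, and HoxA at 0.021, HoxB at -0.020 and HoxC at -0.021. It also gave 1 lower region over the whole array. Without dim immunoprecipitated probes 3 of the 92 Hox regions left were higher (3.26%) and 2 lower (2.17%), against 3.90% and 0.153% of all regions left. The Hox median D was then 0.038, with HoxB at -0.036. The mean over probes gave 6 higher (4.65%) and 1 lower (0.775%), against 3.11% and 0.189% of all regions, and HoxA at 0.0060. Regions of at least 5 probes put HoxA at 0.047. The immunoprecipitated channel alone gave 7 lower, a median D of 0.085 and a level of -0.52 less flanks. With the running median taken off 1 was higher, against 621 over all regions. The Hox median D was then -0.065, with HoxB at -0.14, HoxC at -0.030 and HoxD at -0.036. The value table under its own labels gave 1 higher and 2 lower, a median D of -0.078, HoxB at -0.11, HoxC at -0.059 and HoxD at -0.0037. A size of 0.3 gave 23 higher (17.8%), against 12.2% of all regions. Regions cut every 2000 bp, added after seeing the data, gave 1 lower (0.870%, against 0.642% of all regions) and a median D of 0.093 over 115 Hox regions. From 1 slide alone, 20 to 25 were higher (15.5% to 19.4%) and 5 to 9 lower (3.88% to 6.98%). Of all regions 12.4% to 13.8% were then higher and 3.75% to 4.49% lower. The median D from 1 slide ran from -0.057 to 0.0048 in HoxA and from -0.055 to 0.115 in HoxB. The fewer regions left, and the single slide, are part of how those alternatives are made, and for the others the cause was not tested.

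No paired analysis was possible because each group is 1 pool and the labels give no replicate numbers. D is taken within a slide. Without the slide as a block (arrays paired across slides) 12 Hox regions were higher (9.30%) and 4 lower (3.10%), against 3.96% and 0.440% of all regions. The Hox level less flanks moved by more than its SD over arrays only with normexp and with the immunoprecipitated channel alone, and stayed negative throughout. By cluster it kept its sign in all alternatives, with HoxA nearest to 0 under normexp (0.096) and HoxD with the immunoprecipitated channel alone (-0.070). Signal over background limits the low regions: 27.1% of Hox regions were dim in the control pool, where M is a bound.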
